A study of Rattus norvegicus with 30 samples.

Results

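Myc and the factors that build ribosomes were followed in cultured hepatocytes of the rat under acetaminophen, a painkiller whose oxidised form, a quinone imine, binds glutathione and protein. The list names 47 genes in 5 steps beside Myc itself: transcription of ribosomal RNA by RNA polymerase I, small nucleolar ribonucleoproteins (snoRNPs), nucleolar proteins, small subunit processing and large subunit processing. Of these, 46 were represented on the Affymetrix rat array by a probe set named for that gene alone, and Npm1 was not. All 46 were among the 8531 genes tested, the brightest 60% of the 14217 named genes, so no member was lost to the filter on dim genes.

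The cells were purchased frozen hepatocytes of male Sprague Dawley rats, grown on collagen under a Matrigel overlay. They received 1% DMSO as vehicle, 500 µM acetaminophen or 5000 µM acetaminophen, and were harvested 24 or 48 h after dosing. The acetaminophen wells and the vehicle wells of each time share the collagen and Matrigel culture. The sample titles name DMSO for the vehicle wells alone. Each of the 6 groups has 5 wells with 1 array each. The animals and lots behind the wells are not named, and a p-value therefore describes how far wells differ, with no statement on animals. Values are MAS5 signals, a linear brightness per probe set that was scaled by the authors so that all arrays share a common mean, and a change is a difference of mean log2 signals ± its standard error (SE) over 5 arrays per group. A gene was called higher or lower, or said to rise or fall, at an adjusted p under 0.05 in limma over all genes tested. Because of the common scaling, a change is relative to the rest of the array.

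Ribosome production starts in the nucleolus, where RNA polymerase I copies the ribosomal DNA into a long precursor. snoRNPs modify and help to fold that precursor, and processing factors then cut it and assemble it with ribosomal proteins into a small and a large subunit. Myc, a transcription factor that binds the E-box sequence together with its partner Max, is known to drive genes at each of these steps, and its transcript and protein are short-lived. In the liver it is known for its rise when hepatocytes re-enter growth, as after partial hepatectomy.

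The cells had the transcripts of hepatocytes: all 9 of the 9 hepatocyte markers on the array, of 10 listed, passed the brightness filter, and their summed signal was between 335420 and 446998 on the 30 arrays. RNA quality was read from the beta-actin control probe sets as log2 of 3' over 5' signal. At 48 h this ratio had a mean of 1.24 ± 0.11 (SD, n = 5) over the vehicle arrays and of 1.86 ± 0.12 over those of 500 µM. The difference of 0.62 had an exact two-sided permutation p of 0.00794, the smallest that 5 against 5 arrays can give, and an adjusted p of 0.0185 over 7 comparisons of groups. The 5000 µM arrays of 48 h had 1.21 ± 0.05. Means at 24 h were 1.78 ± 0.24 for vehicle, 1.61 ± 0.33 for 500 µM and 1.37 ± 0.22 for 5000 µM. The difference of -0.41 between 5000 µM and vehicle at 24 h had an exact permutation p of 0.0476 (adjusted p = 0.0833).

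At 5000 µM the transcripts of Myc and of many ribosome biogenesis factors were lower than in vehicle. At 24 h, 21 of the 46 members fell and 4 rose, where 38.1% of all genes tested were called, 19.6% lower and 18.6% higher. At 48 h, 27 members fell and 1 rose, where 32.6% of all genes were called, 18% lower (1536 of 8531) and 14.6% higher. The members' median change was -0.21 at 24 h and -0.32 at 48 h, beside medians of -0.0027 and -0.0107 over all genes tested. At 48 h, 43 of the 46 changes were negative, and for 23 members all 5 treated arrays lay below all 5 vehicle arrays, which was so for 13.6% of all genes. At 24 h the latter held for 13 members, beside 12.3% of all genes.

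**Figure D1:**
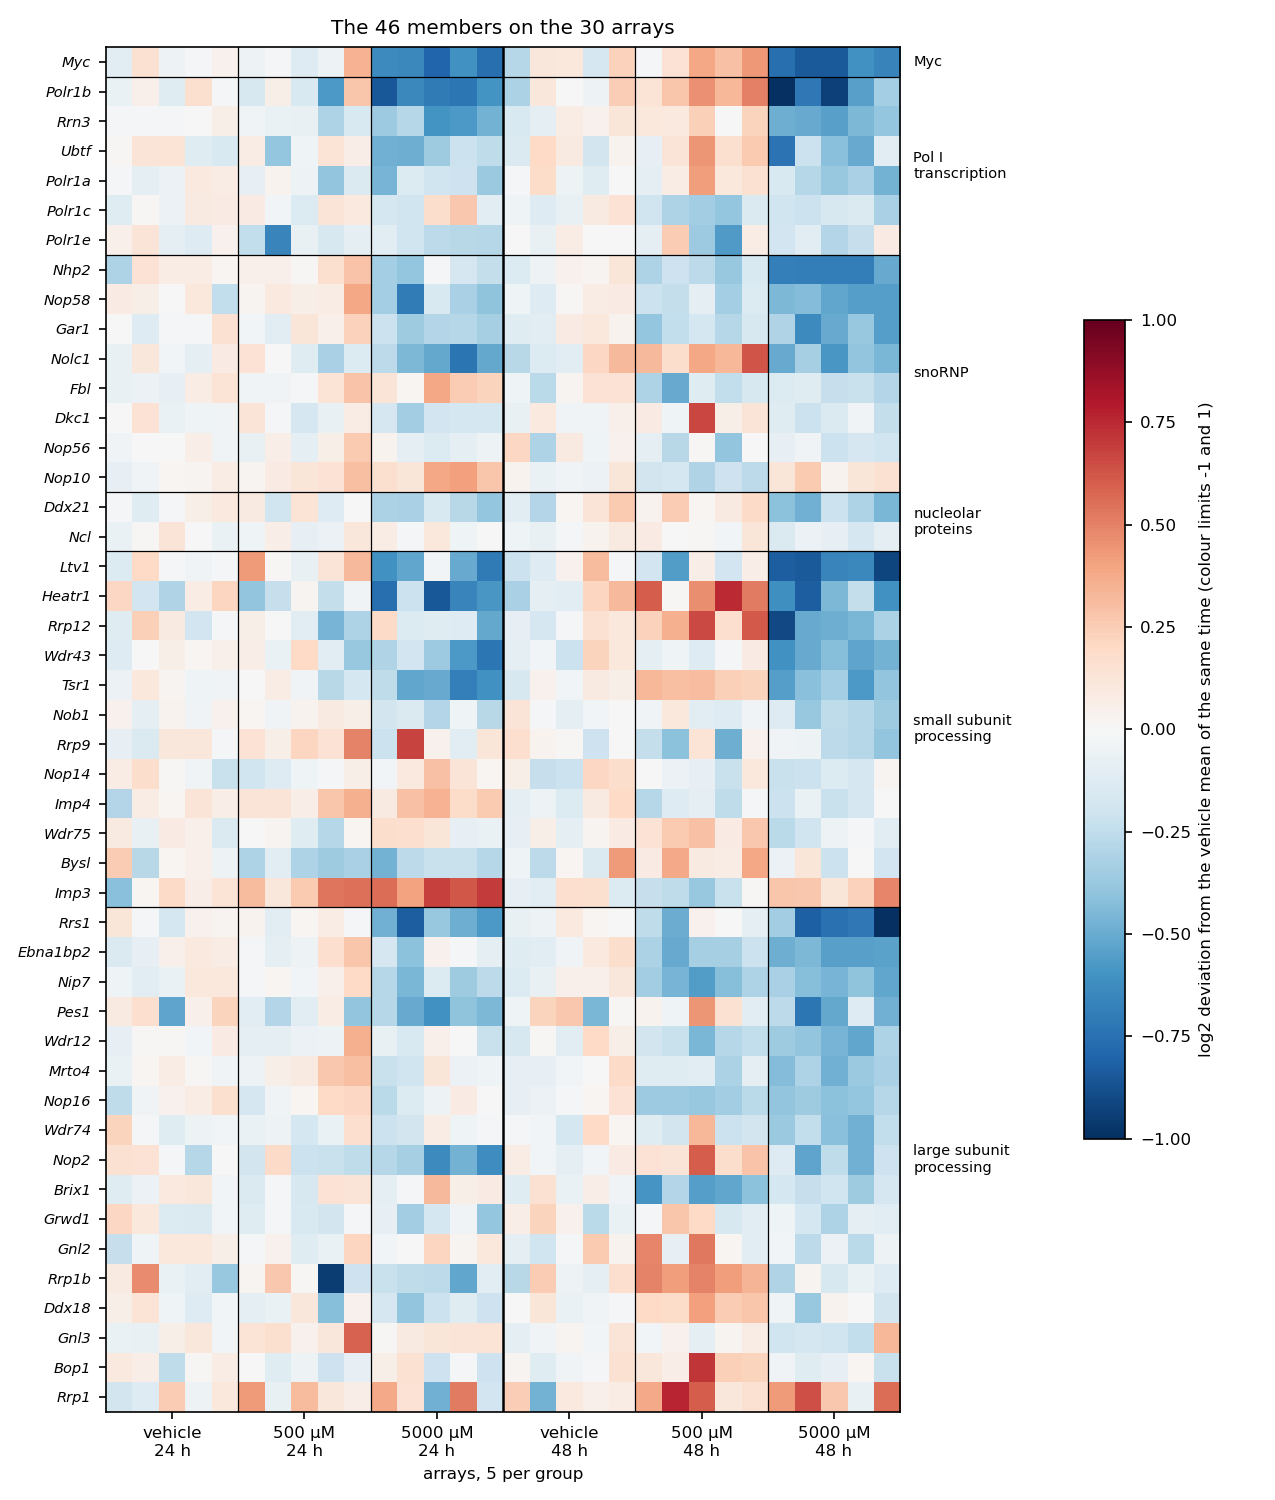
Log2 deviation of each of the 46 members (rows, grouped by step and ordered within a step by the change at 5000 µM and 48 h) on each of the 30 arrays (columns, 5 per group) from the vehicle mean of the same time. Blue is below and red above vehicle, with colour limits at -1 and 1. The columns at 5000 µM are mostly blue at both times, with Imp3 and Nop10 red. Rrp1 has the highest mean deviation at 5000 µM and 48 h (0.37). The columns at 500 µM and 48 h hold blue and red rows side by side.

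The shift was seen on each array. The median deviation of the 46 members from the vehicle mean of the same time was between -0.23 and -0.12 on the 5 arrays of 5000 µM at 24 h and between -0.30 and -0.27 at 48 h. On the vehicle arrays it was between -0.05 and 0.04 at 24 h and between -0.08 and 0.09 at 48 h, so the 5000 µM arrays did not overlap vehicle at either time. The arrays of 500 µM overlapped vehicle, at -0.04 to 0.09 at 24 h and -0.06 to 0.07 at 48 h. Over all genes tested the medians of the same 30 arrays stayed between -0.046 and 0.039.

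**Figure D2:**
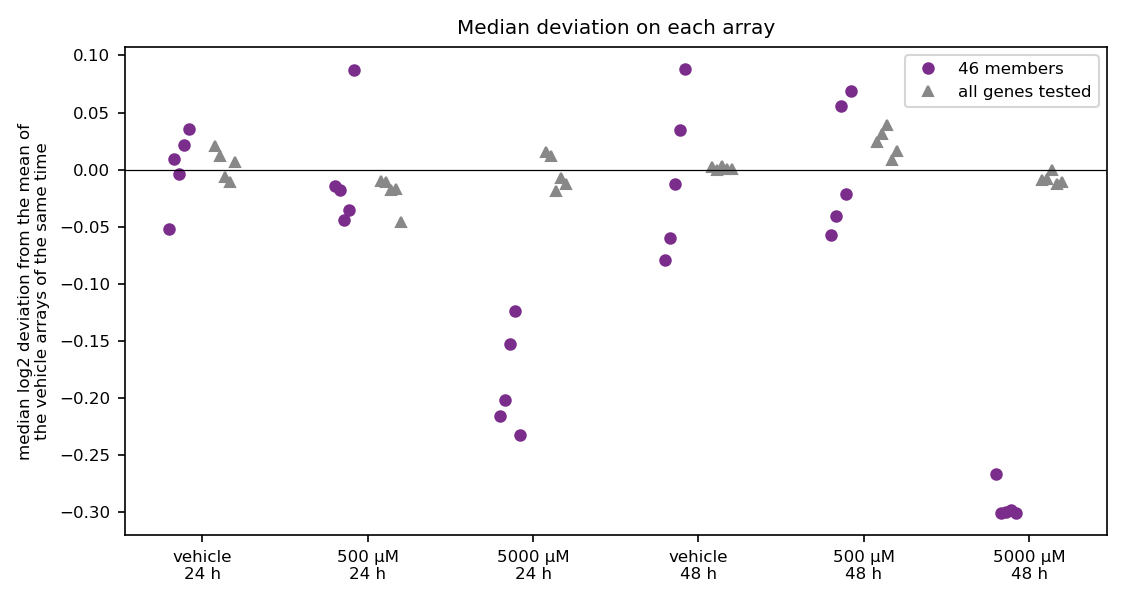
Median log2 deviation from the vehicle mean of the same time (y axis) on each array, for the 46 members (circles) and for all 8531 genes tested (triangles), by group (x axis). The members' medians at 5000 µM lie between -0.23 and -0.12 at 24 h and between -0.30 and -0.27 at 48 h, and those of all genes lie near 0 in every group.

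Myc was among the members that changed most. Its signals at 24 h were 5613, 6752, 5864, 5996 and 6264 on the vehicle arrays, and 3916, 3892, 3507, 3998 and 3618 at 5000 µM. At 48 h they were 4503, 5962, 5916, 4905 and 6469 in vehicle, and 3254, 3074, 3073, 3624 and 3463 at 5000 µM. Each treated array lay below each vehicle array of its time. The change was -0.69 ± 0.09 at 24 h (0.621 of the vehicle level, adjusted p = 5.52e-07) and -0.74 ± 0.09 at 48 h (0.598 of vehicle, adjusted p = 1.78e-07). The effects at the 2 times differed by -0.05 ± 0.13 (adjusted p = 0.83). The Myc signals at 500 µM and 24 h were 5881, 6026, 5556, 5862 and 7764, which overlapped vehicle (change 0.02 ± 0.09, adjusted p = 0.934). In bulk cultures less transcript per cell cannot be told apart from fewer cells of a type that carry it.

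Among the 6 members of the polymerase I machinery, 4 fell at 24 h and 5 at 48 h, with none higher, and the median change was -0.32 and -0.36. Polr1b, a core subunit of the polymerase, had signals of 901, 979, 870, 1054 and 930 in vehicle and 524, 603, 580, 573 and 623 at 5000 µM at 24 h. At 48 h it had 604, 813, 751, 727 and 892 in vehicle and 342, 458, 394, 516 and 592 at 5000 µM. The groups did not overlap at either time, although the highest treated and lowest vehicle arrays at 48 h were close. Its change was -0.70 ± 0.14 (adjusted p = 1.24e-04) and -0.73 ± 0.14 (adjusted p = 8.80e-05). Rrn3, the factor that makes the polymerase competent to start, went from a mean signal of 3590 ± 83.5 (SD, n = 5) to 2622 ± 243 at 24 h and from 3178 ± 250 to 2282 ± 96.2 at 48 h, changes of -0.46 ± 0.07 and -0.48 ± 0.07. The largest subunit Polr1a fell by 0.28 and 0.32 on the log2 scale, and Ubtf, which keeps ribosomal DNA open for transcription, by 0.36 and 0.40. The Ubtf calls were lost when its 4 probe sets were averaged (-0.32, adjusted p = 0.137, and 0.06, adjusted p = 0.841), and that of Polr1a at 24 h without 5000 µM replicate 1 (adjusted p = 0.0656). Polr1c, a subunit shared with RNA polymerase III, had a change of -0.01 ± 0.08 at 24 h and fell by 0.21 at 48 h, a call lost with arrays centred on their medians (-0.18, adjusted p = 0.114) and in 7 of the 10 fits that leave out 1 array, and Polr1e did not pass at either time (-0.23 ± 0.11 and -0.15 ± 0.11).

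The snoRNP proteins split. Of the 8, 4 fell at each time, and these were the same genes, Nop58, Gar1, Nhp2 and Nolc1. At 24 h 2 rose. Nolc1, a chaperone of snoRNPs, had signals of 2578, 2934, 2671, 2559 and 2870 in vehicle and 2264, 1989, 1902, 1638 and 1911 at 5000 µM at 24 h. At 48 h its signals were 1743, 1921, 1953, 2446 and 2657 in vehicle and 1496, 1684, 1412, 1610 and 1543 at 5000 µM. No treated array reached a vehicle array at either time, and the change was -0.49 ± 0.10 and -0.45 ± 0.10. Its other probe sets were less clear, and averaging all 4 gave changes of -0.13 and -0.24, of which neither was called.

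Nhp2 and Gar1 belong to the H/ACA snoRNPs, which turn uridines of the precursor into pseudouridine. Nhp2 had signals of 7487, 7938, 8474, 8390 and 8928 in vehicle and 5123, 5094, 5102, 5087 and 5809 at 5000 µM at 48 h. The groups lay far apart, with a change of -0.65 ± 0.08 (adjusted p = 3.70e-08). At 24 h the signals were 5873, 8023, 7620, 7631 and 7345 in vehicle and 5727, 5539, 7175, 6445 and 6146 at 5000 µM, so the groups overlapped through the lowest vehicle array. That change was -0.23 ± 0.08 (adjusted p = 0.0149), and it missed the threshold with arrays centred on their medians (adjusted p = 0.0595), without vehicle replicate 2 (adjusted p = 0.0540) and without 5000 µM replicate 2 (adjusted p = 0.0538). The difference between the effects of 5000 µM at the 2 times was itself called for Nhp2 (-0.42 ± 0.11, adjusted p = 0.0063). Gar1 fell by 0.30 and 0.47 on the log2 scale. Of the other proteins of the same complexes, Dkc1, the pseudouridine synthase, did not pass (-0.21 ± 0.09 and -0.15 ± 0.09), and Nop10 rose at 24 h (0.27 ± 0.06) and was at 0.14 ± 0.06 at 48 h.

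In the C/D snoRNPs, which methylate ribosomal RNA, Nop58 fell by 0.38 and 0.50 on the log2 scale, from a mean signal of 8451 ± 801 to 6497 ± 860 at 24 h and from 9188 ± 548 to 6488 ± 263 at 48 h. Its partner Nop56 changed by -0.07 ± 0.08 and -0.14 ± 0.08 and was not called. Fbl, the methyltransferase of these particles, rose at 24 h (0.20 ± 0.08, adjusted p = 0.0479) and stood at -0.20 ± 0.08 at 48 h (adjusted p = 0.0558). The rise was lost with the actin ratio as a covariate (0.07, adjusted p = 0.615) and in 6 of the 10 fits that leave out 1 array. The effects at the 2 times differed for Fbl by -0.40 ± 0.11 (adjusted p = 0.0141).

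Of the nucleolar proteins, Ddx21, an RNA helicase that binds ribosomal DNA and precursor RNA, fell at both times. Its signals at 24 h were 8662, 8069, 8718, 9176 and 9422 in vehicle and 7067, 7022, 7921, 7263 and 6742 at 5000 µM. At 48 h they were 7277, 6431, 7967, 8620 and 9424 in vehicle and 5916, 5640, 6798, 6358 and 5722 at 5000 µM. The groups were apart at 24 h and overlapped at 48 h, where the vehicle arrays were widely spread, and the changes were -0.29 ± 0.08 and -0.38 ± 0.08. A dimmer probe set gave 0.18 ± 0.12 and -0.07 ± 0.12, and with the mean of both probe sets neither change was called. Ncl, nucleolin, changed by 0.02 ± 0.05 and -0.11 ± 0.05 and was not called.

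Among the 12 small subunit factors, 6 fell and 2 rose at 24 h, and 6 fell and 1 rose at 48 h, with medians of -0.16 and -0.24. Heatr1 and Wdr43 belong to the complex that first binds the precursor as it is transcribed. Heatr1 had signals of 2364, 1800, 1662, 2166 and 2377 in vehicle and 1219, 1772, 1140, 1298 and 1373 at 5000 µM at 24 h. At 48 h they were 1045, 1224, 1211, 1523 and 1644 in vehicle and 859, 742, 961, 1110 and 862 at 5000 µM. One treated array reached into the vehicle range at each time, and the changes were -0.61 ± 0.14 and -0.55 ± 0.14 (adjusted p = 7.84e-04 and 0.00287). Wdr43 fell by 0.43 and 0.51 on the log2 scale, and Wdr75, of the same complex, did not pass (0.06 ± 0.08 and -0.13 ± 0.08).

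Late small subunit factors had some of the larger falls. Ltv1, which accompanies the small subunit on its way to the cytoplasm, had signals of 2609, 2763, 3117, 3760 and 2989 in vehicle and 1707, 1687, 1914, 1934 and 1601 at 5000 µM at 48 h. At 24 h it had 2560, 3234, 2776, 2747 and 2796 in vehicle and 1847, 1959, 2757, 1981 and 1722 at 5000 µM. The groups were apart at 48 h, and at 24 h 1 treated array lay within the vehicle range. The change was -0.47 ± 0.12 at 24 h and -0.78 ± 0.12 at 48 h (adjusted p = 0.00194 and 5.23e-06), the largest estimate of any fall at 48 h, within 1 SE of those of Rrs1 and Myc. Tsr1, a GTPase-like factor that keeps the immature subunit from translating, went from 7377 ± 362 to 5192 ± 607 at 24 h and from 6454 ± 442 to 4706 ± 326 at 48 h. Nob1, the nuclease of the last cut, fell by 0.19 and 0.28 on the log2 scale. Rrp12 fell at 48 h alone by the threshold (-0.53 ± 0.12, with -0.14 ± 0.12 at 24 h) on its brightest probe set, and the difference between the times was not called (-0.39 ± 0.18, adjusted p = 0.126). Another Rrp12 probe set was lower at both times (-0.39 ± 0.13, adjusted p = 0.0367, and -0.47 ± 0.13, adjusted p = 0.0125), and the remaining one at neither (-0.01 ± 0.17 and -0.16 ± 0.17).

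Imp3 went the other way. It and Imp4 bind the U3 snoRNP, the particle that guides the first cuts. Its signals at 24 h were 1617, 2186, 2466, 2263 and 2373 in vehicle and 3184, 2847, 3461, 3326 and 3501 at 5000 µM. At 48 h they were 2374, 2322, 2828, 2805 and 2291 in vehicle and 3042, 3021, 2737, 2941 and 3520 at 5000 µM. All treated arrays were above vehicle at 24 h, and 1 reached into the vehicle range at 48 h. The change was 0.59 ± 0.10 at 24 h (1.51 times vehicle, adjusted p = 2.16e-05) and 0.28 ± 0.10 at 48 h (adjusted p = 0.0364), and the latter call was lost in some of the fits that leave out 1 array and without the brightness filter. Imp3 was also the member nearest to the threshold at 500 µM and 24 h (0.36 ± 0.10, adjusted p = 0.0506). Imp4 rose at 24 h (0.23 ± 0.08), a call lost without vehicle replicate 1 (0.16) and with its probe sets averaged (-0.08), and stood at -0.13 ± 0.08 at 48 h. Bysl, needed for the small subunit to mature, fell at 24 h (-0.29 ± 0.11, and -0.23, adjusted p = 0.0995, without vehicle replicate 1) and was at -0.07 ± 0.11 at 48 h. Rrp9 and Nop14 did not pass at either time.

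Of the large subunit factors, 5 of 17 fell (median -0.08), and 10 of 17 fell at 48 h (median -0.32), with none higher at either time. Rrs1, needed for the large subunit to mature, had signals of 4496, 4073, 3653, 4256 and 4215 in vehicle and 2967, 2332, 3183, 2943 and 2766 at 5000 µM at 24 h. At 48 h they were 3789, 3850, 4266, 4042 and 3993 in vehicle and 3138, 2257, 2378, 2429 and 1740 at 5000 µM. The groups did not overlap at either time, with changes of -0.55 ± 0.11 and -0.76 ± 0.11 (adjusted p = 1.06e-04 and 9.44e-07). The other large subunit members that fell at both times were Nop2, a methyltransferase of the large ribosomal RNA (-0.47 ± 0.10 and -0.32 ± 0.10), Pes1 (-0.45 ± 0.14 and -0.42 ± 0.14) and Nip7 (-0.30 ± 0.06 and -0.43 ± 0.06). Without 5000 µM replicate 2 at 48 h the calls of Nop2 (-0.27, adjusted p = 0.057) and Pes1 (-0.35, adjusted p = 0.064) were lost, and that of Pes1 also without vehicle replicates 2 or 3.

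The transcripts of the PeBoW complex, made of Pes1, Bop1 and Wdr12, were not all called, and differences between them were not tested. Pes1 fell at both times, Wdr12 fell at 48 h (-0.41 ± 0.08), and Bop1 was not called (-0.04 ± 0.09 and -0.09 ± 0.09). Ebna1bp2 (-0.51 ± 0.08), Mrto4 (-0.38 ± 0.07), Nop16 (-0.37 ± 0.07), Wdr74 (-0.35 ± 0.09) and Brix1 (-0.23 ± 0.08) were also lower at 48 h and not called at 24 h on their brightest probe sets. A dimmer Brix1 probe set had the other timing, lower at 24 h (-0.31 ± 0.09, adjusted p = 0.0176) and not called at 48 h (0.09 ± 0.09). That of Mrto4 was likewise lower at 24 h (-0.59 ± 0.15, adjusted p = 0.00555) and not called at 48 h (-0.39 ± 0.15, adjusted p = 0.102). The Brix1 call was lost with arrays centred on their medians (-0.20, adjusted p = 0.085) and without vehicle replicate 2 (-0.19), vehicle replicate 4 (-0.21) or 5000 µM replicate 4 (-0.20). For Ebna1bp2, Wdr12, Mrto4 and Nop16 the difference between the effects at 48 and 24 h was called as well, at -0.38, -0.33, -0.30 and -0.29, in the fit without covariate. On the dimmer Mrto4 probe set that difference was 0.20 ± 0.22 and not called. Ddx18, a helicase, fell at 24 h (-0.22 ± 0.09, adjusted p = 0.0477, a call lost in 7 of the 10 fits that leave out 1 array), and Gnl2, Gnl3, Grwd1, Rrp1 and Rrp1b were not called at 5000 µM. Rrp1 had the widest spread between arrays of any member, with a pooled SD of 0.28 on the log2 scale beside a median of 0.14 over the members. Its change at 5000 µM was 0.08 at 24 h and 0.37 at 48 h (adjusted p = 0.754 and 0.0866 in limma). The latter was the highest estimate of any member at 48 h.

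**Figure D3:**
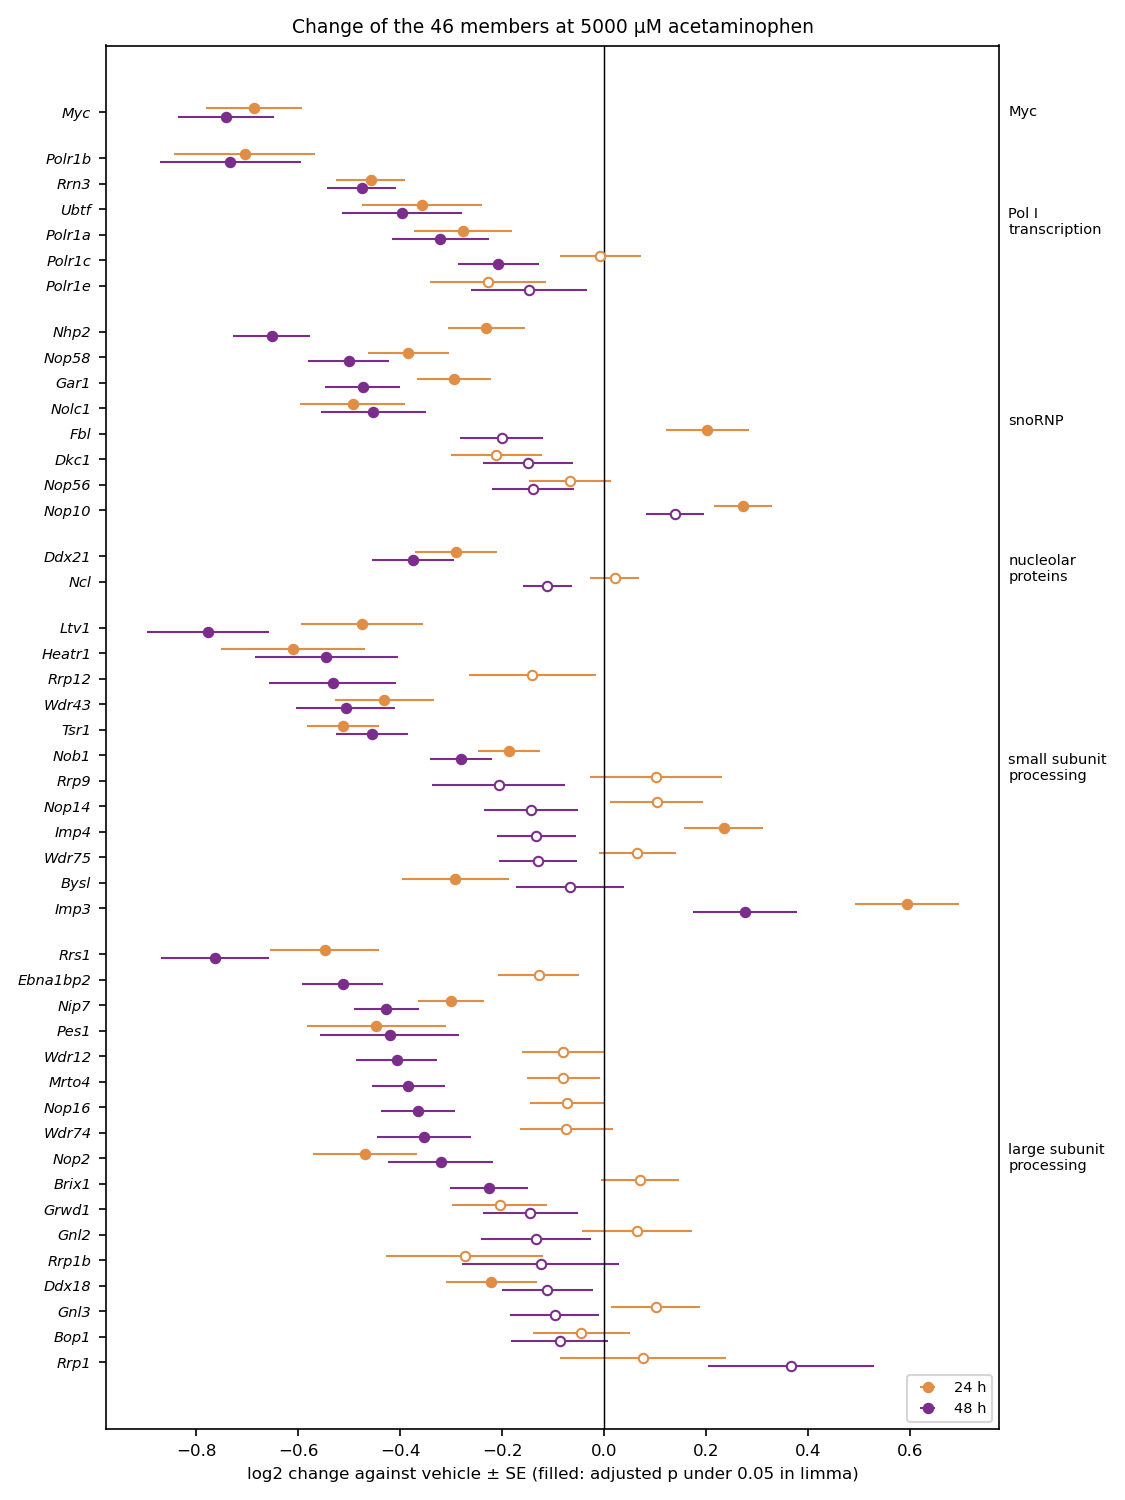
Log2 change against vehicle ± SE (x axis) for each of the 46 members (y axis, by step) at 5000 µM and 24 h or 48 h, with 5 arrays per group. Filled points have an adjusted p under 0.05 in limma. Most points lie left of 0, from -0.70 to 0.59 at 24 h and from -0.78 to 0.37 at 48 h, and Imp3 is filled on the right at both times.

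The effect of 5000 µM itself differed between the times for 7 members, each lower at 48 h, where 16.4% of all genes differed. The members' share was thus near that of all genes. None of the 7 kept the call with the actin ratio as a covariate, where 9.62% of all genes were called. The genes that fell at the 2 times overlapped, in comparisons that share no arrays. In all, 19 members fell at both times, out of the 21 at 24 h and the 27 at 48 h, where 9.34% of all genes fell at both. They were Myc, 4 of the 6 polymerase I members, 4 of the 8 snoRNP members, 1 of the 2 nucleolar proteins, 5 of the 12 small subunit factors and 4 of the 17 large subunit factors. Bysl and Ddx18 were called at 24 h alone, and 8 members at 48 h alone. Of the 19, 11 kept the call at both times in each of the 19 other fits run per comparison: Myc, Polr1b, Rrn3, Nop58, Gar1, Wdr43, Heatr1, Ltv1, Tsr1, Rrs1 and Nip7. With the actin ratio as a covariate, 19 of the 25 calls at 24 h and all 28 at 48 h were kept in the same direction. In that fit 30.5% of all genes were called at 24 h and 35.5% at 48 h.

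**Figure D4:**
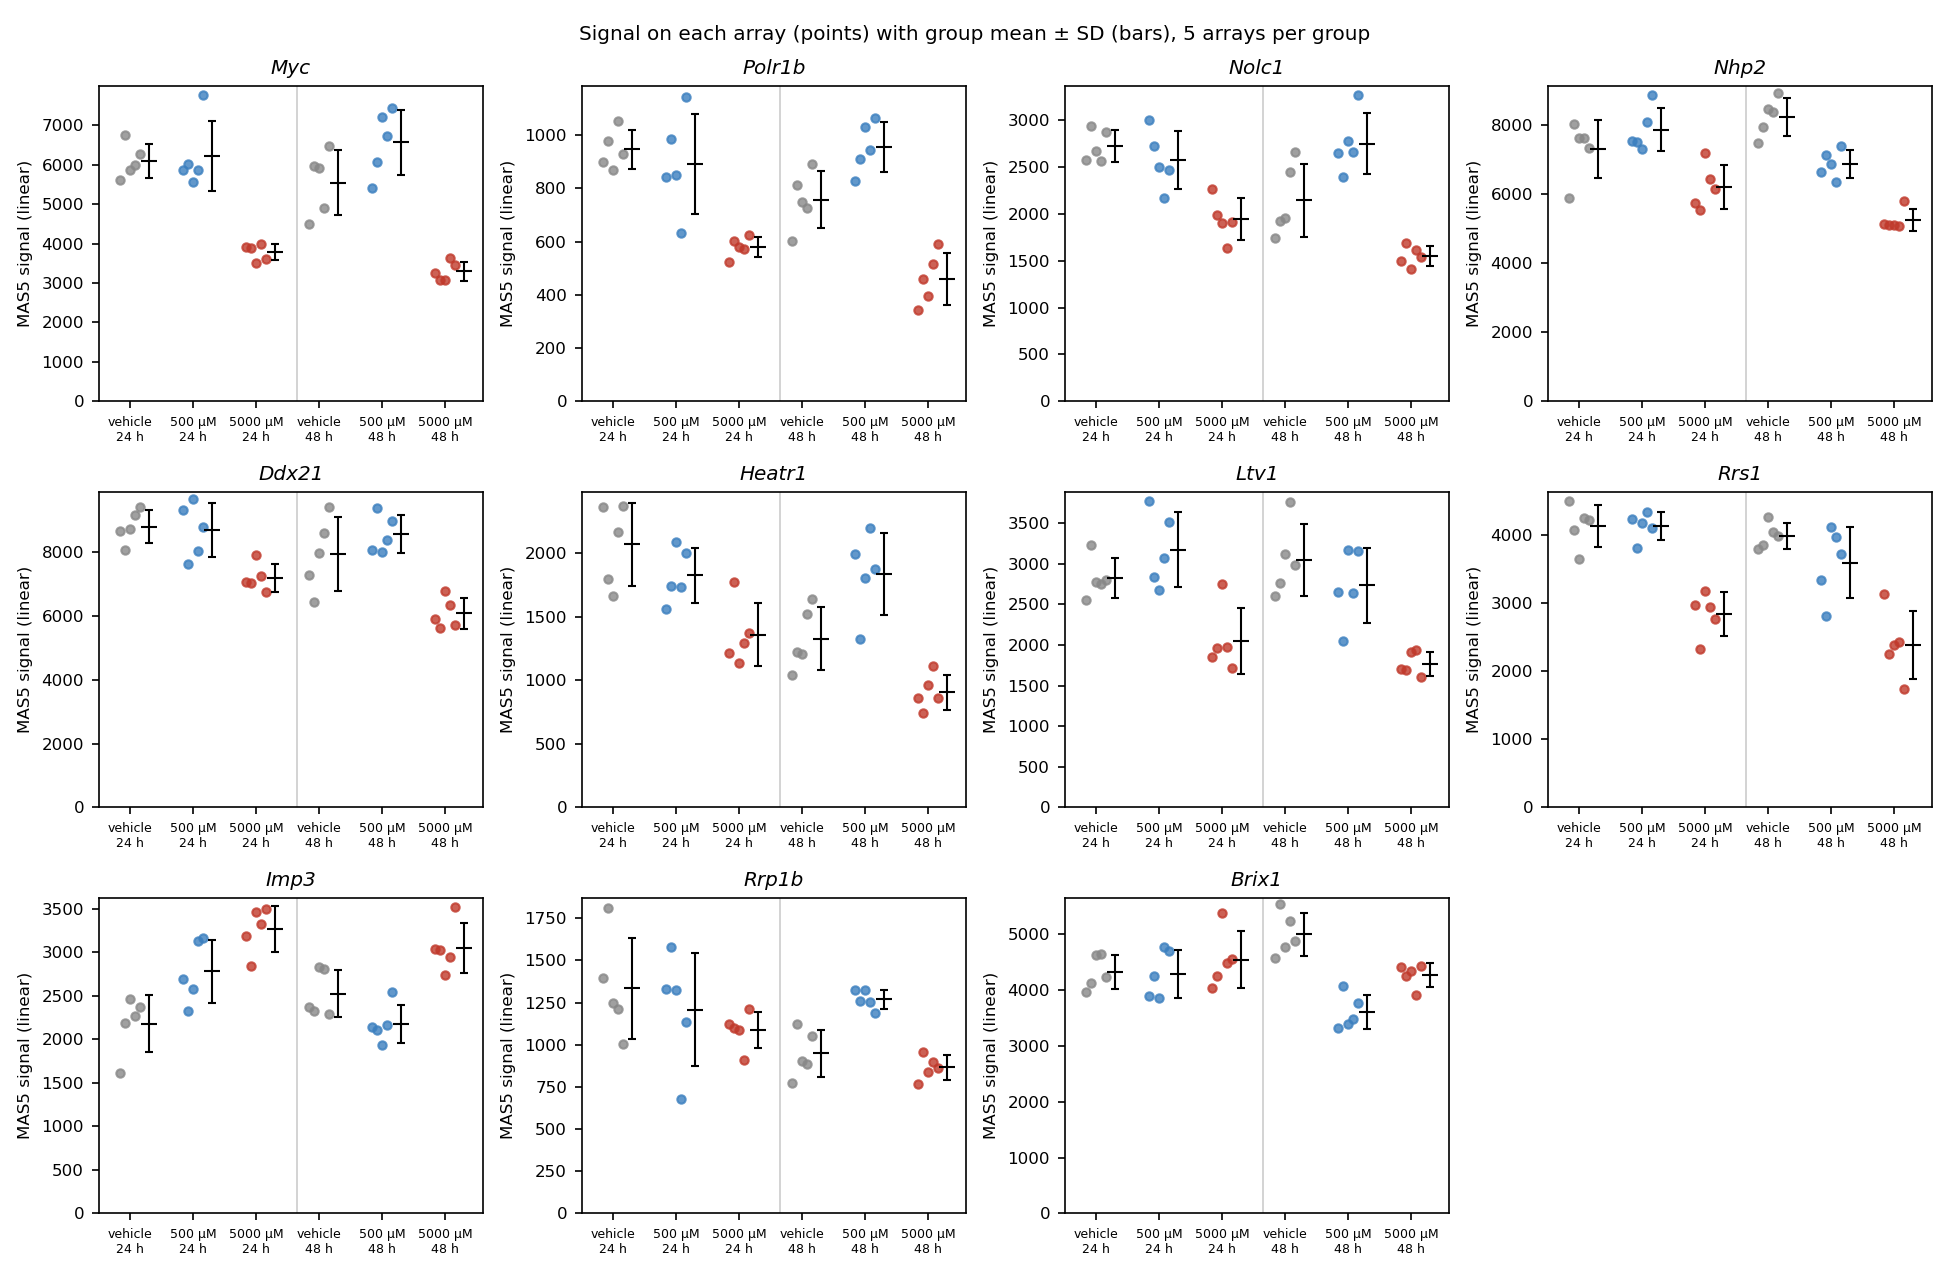
MAS5 signal (y axis, linear, from 0) of the 11 genes given on every array, with 1 point per array and the mean ± SD of 5 arrays beside each group. Each panel has its own scale, since signals of different probe sets cannot be set against each other. For Myc, Polr1b, Nolc1 and Rrs1 the 5000 µM points lie below all vehicle points at both times, and for Imp3 they lie above them at 24 h.

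The lower dose gave a different picture at 24 h. No member was called in limma at 500 µM and 24 h, where 2.86% of all genes were, and 6 had an unadjusted p under 0.05. The median change was -0.0049, with 23 changes above and 23 below 0. With arrays centred on their medians or quantile normalized, Imp3 alone was called (0.40 in each).

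After 48 h at 500 µM the members moved in both directions, and the counts changed with the scaling and with the actin ratio as a covariate. That ratio was between 1.09 and 1.34 on the vehicle arrays and between 1.74 and 2.00 on those of 500 µM. Since these ranges do not overlap, dose and RNA quality cannot be told apart in this comparison. In limma 12 rose and 11 fell, where 42.6% of all genes were called, 24.0% higher and 18.6% lower, so the share of members called was near that of all genes. With arrays centred on their medians 4 rose and 15 fell, where 1488 of all 8531 genes rose and 2224 fell. After quantile normalization 5 rose and 14 fell, where 1731 of all genes rose and 1869 fell. In the values as deposited 2044 of all genes rose and 1588 fell, so the balance of all genes moved with the scaling too. With the actin ratio, which was higher by 0.62 at 500 µM at this time, as a covariate, 1 member was called, Heatr1, and 3.97% of all genes.

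The members that rose were Heatr1, Rrp1b, Rrp12, Rrp1, Nolc1, Polr1b, Tsr1, Nop2, Bop1, Ddx18, Myc and Wdr75, by between 0.47 and 0.21. Of these 12 calls, 4 held in each fit that leaves out 1 array, and of the 11 falls 10 did. With its probe sets averaged, Wdr75 was instead lower than in vehicle (-0.47, adjusted p = 0.00286). Heatr1 had signals of 1992, 1325, 1810, 2199 and 1876 at 500 µM, which overlapped vehicle (0.47 ± 0.14, adjusted p = 0.00828, and 0.68 ± 0.19, adjusted p = 0.0395, with the covariate). Rrp1b, a nucleolar relative of Rrp1, had signals of 775, 1125, 906, 884 and 1054 in vehicle and 1325, 1257, 1324, 1254 and 1187 at 500 µM. These did not overlap, but the change of 0.43 ± 0.15 became -0.02 ± 0.19 with the covariate. Myc, at 5415, 6072, 7201, 6739 and 7430, overlapped vehicle (0.25 ± 0.09, adjusted p = 0.0334), and with arrays centred on their medians it was not called (0.17, adjusted p = 0.152).

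The members that fell were Brix1, Nip7, Nop16, Ebna1bp2, Wdr12, Polr1c, Fbl, Nhp2, Gar1, Nop10 and Nop58, by between 0.47 and 0.20 on the log2 scale. Brix1, needed early in large subunit assembly, had signals of 4584, 5541, 4768, 5237 and 4882 in vehicle and 3320, 4081, 3401, 3485 and 3762 at 500 µM. The groups were apart, and the change was -0.47 ± 0.08 (adjusted p = 2.12e-05), against -0.27 ± 0.09 (adjusted p = 0.109) with the covariate. A dimmer Brix1 probe set gave -0.02 ± 0.09. Nip7 was at -0.42 ± 0.06, and at -0.27 ± 0.08 with the covariate (adjusted p = 0.0551).

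**Figure D5:**
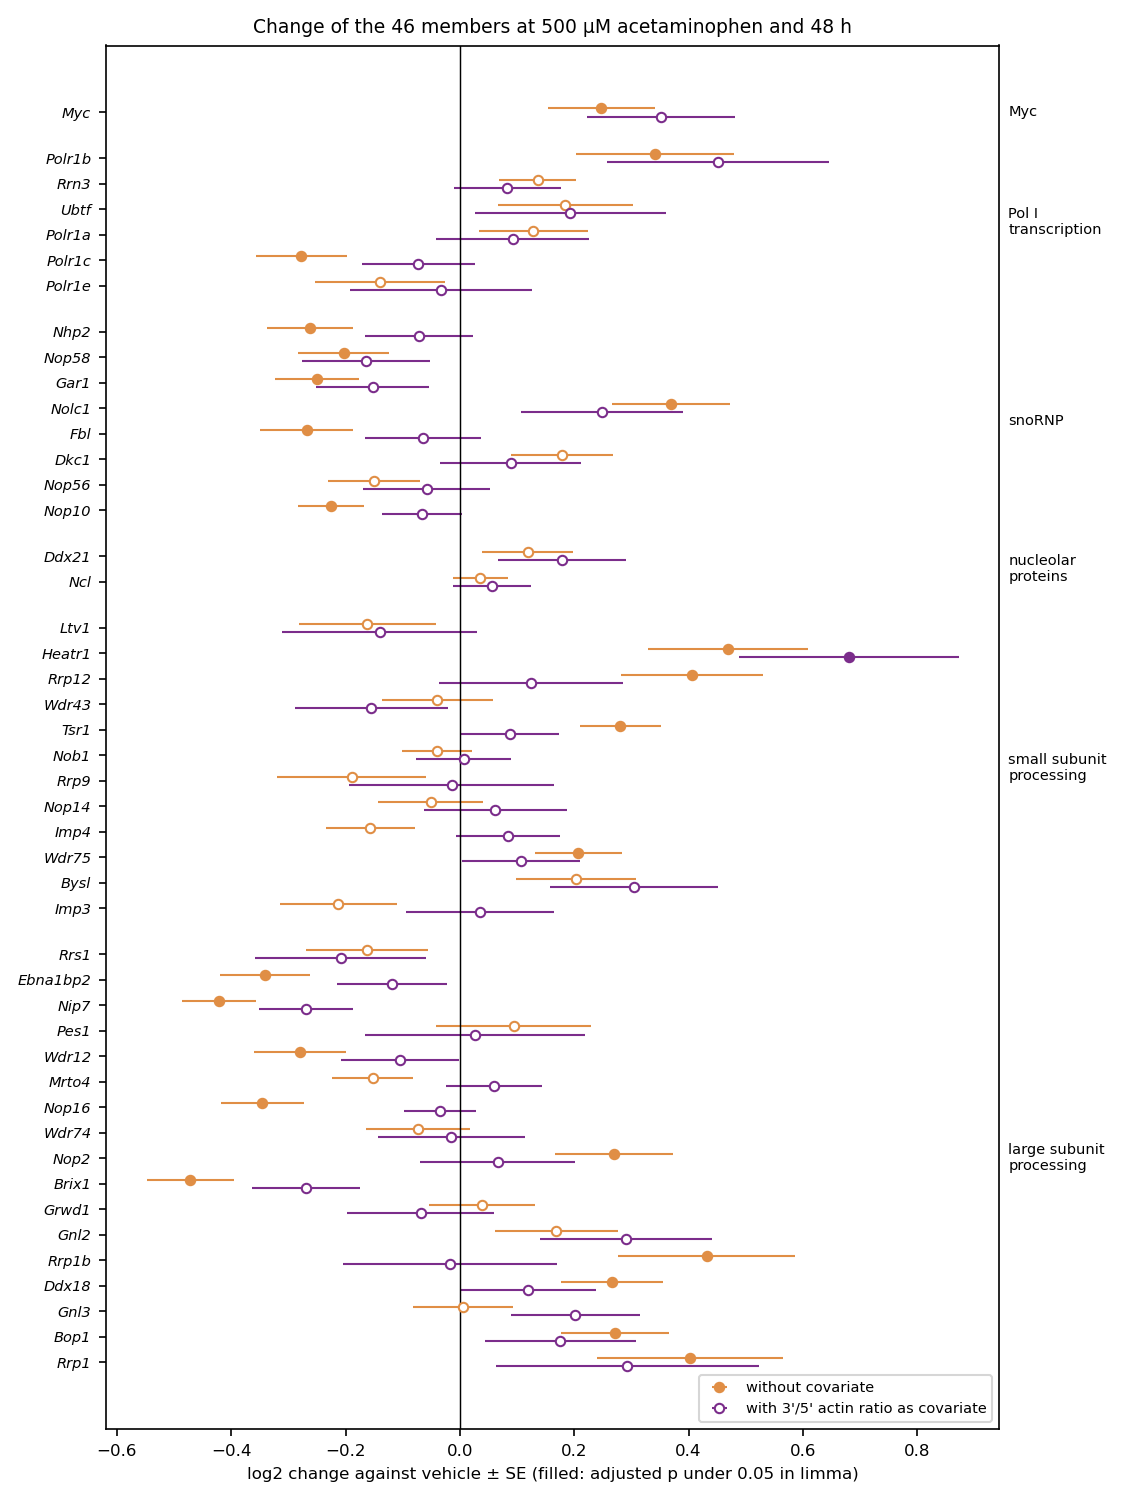
Log2 change against vehicle ± SE (x axis) for each of the 46 members (y axis, by step) at 500 µM and 48 h, without and with the 3' to 5' beta-actin ratio of each array as a covariate. Filled points have an adjusted p under 0.05 in limma. Of the 23 members filled without the covariate, Heatr1 alone is filled with it.

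Set against 500 µM, 5000 µM had 18 members lower and none higher at 24 h, where 31.2% of all genes were called, 14.3% lower and 16.8% higher. At 48 h 29 were lower and 3 higher, where 47.6% were called, 28.2% lower and 19.4% higher. Myc was lower by 0.71 ± 0.09 on the log2 scale at 24 h and by 0.99 ± 0.09 at 48 h, which left it at 0.504 of its level at 500 µM. At 48 h the changes of Polr1b, Heatr1 and Rrp12 were -1.08 ± 0.14, -1.01 ± 0.14 and -0.94 ± 0.12. The 3 members higher than at 500 µM at 48 h were Imp3 (0.49 ± 0.10), Nop10 (0.36 ± 0.06) and Brix1 (0.24 ± 0.08). The actin ratio was lower by 0.65 at 5000 than at 500 µM at 48 h, and with it as a covariate 21 members were lower and 1 higher. Of all 8531 genes 20.9% were called in that fit, 1025 lower and 757 higher. These comparisons share the 5000 µM arrays with those against vehicle.

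The effect of 500 µM differed between 48 and 24 h for 25 of the 46 members, where 36.6% of all genes differed. Of these members 11 went upward and 14 downward. With the actin ratio as a covariate it differed for none of the members and for 3 of all 8531 genes (0.0352%). Heatr1 (0.64 ± 0.20), Rrp1b (0.60 ± 0.22) and Rrp12 (0.57 ± 0.18) had the largest upward differences, and Imp3 (-0.57 ± 0.14) the largest downward one.

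Members also differed between the times in vehicle. There, 8 were higher and 9 lower at 48 than at 24 h, where 32.5% of all genes were called, 13.4% higher and 19% lower (1625 of 8531). The share of members called, 37.0%, was near that of all genes. The largest differences were those of Heatr1 (-0.65 ± 0.14), Rrp12 (-0.50 ± 0.12), Rrp1b (-0.48 ± 0.15) and Bysl (-0.39 ± 0.11), and of Imp4 (0.27 ± 0.08) and Gar1 (0.26 ± 0.07). The actin ratio fell by 0.53 between these groups (exact permutation p = 0.00794). With it as a covariate 2 members were called, Bysl and Heatr1, and 5.16% of all genes. Myc did not pass (-0.15 ± 0.09, adjusted p = 0.238). The 48 h vehicle arrays are also the controls of 500 µM at 48 h, where Heatr1, Rrp12 and Rrp1b were higher (0.47, 0.41 and 0.43) and Gar1 lower (-0.25).

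E-boxes were looked for as the sequence CACGTG, which reads the same on both strands, in RefSeq promoter windows of build GRCr8 from 250 bases before to 50 bases after the start of each gene. The table held a window for 41 of the 46 members, and none for Myc, Rrs1, Gnl2, Bop1 and Wdr43. The motif was in 13 of the 41 (31.7%), in 2148 of all 33469 windows (6.42%) and in 788 of the 7947 windows of tested genes (9.92%). Related lists, described further below, had shares near that of the members. It was in 23 of 85 windows of other ribosome biogenesis factors (27.1%) and 8 of 27 of Myc targets outside ribosome biogenesis (29.6%). For the Myc network it was in 4 of 17 windows (23.5%), and for proliferation genes in 1 of 15 (6.67%). It was in 5 of 11 small subunit windows, 6 of 14 large subunit windows, 2 of 8 snoRNP windows, and none of the 6 polymerase I and 2 nucleolar protein windows. Of the 13 members with it, 6 fell and 1 rose at 24 h at 5000 µM (median -0.21) and 6 fell at 48 h (median -0.20). Of the 28 without it, 12 fell and 3 rose at 24 h (median -0.20), and 18 fell and 1 rose at 48 h (median -0.34). A match describes these letters and is no measurement of Myc binding.

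The sequences below are the E-box members that were called at 5000 µM, 5′ to 3′ on the strand of the gene, with CACGTG in capitals. For Ltv1 (chr1:9398558-9398807, - strand) and Pes1 (chr14:83074096-83074345, + strand), which fell at both times and hold the motif before the start, the 250 bases before the start are shown. For the others a window around the motif is shown: Tsr1 (chr10:60258798-60258827, + strand) and Nop2 (chr4:159618992-159619015, + strand), which fell at both times, Rrp12 (chr1:250655298-250655327, - strand) and Ebna1bp2 (chr5:137433552-137433581, + strand), which fell at 48 h, Bysl (chr9:20880361-20880390, + strand) and Ddx18 (chr13:35295968-35295997, - strand), which fell at 24 h, and Fbl (chr1:92597416-92597445, + strand), which rose at 24 h.
Ltv1: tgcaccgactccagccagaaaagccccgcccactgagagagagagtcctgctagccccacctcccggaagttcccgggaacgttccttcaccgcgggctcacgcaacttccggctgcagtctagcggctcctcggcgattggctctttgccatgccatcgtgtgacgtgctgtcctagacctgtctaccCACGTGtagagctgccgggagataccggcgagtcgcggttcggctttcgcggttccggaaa
Pes1: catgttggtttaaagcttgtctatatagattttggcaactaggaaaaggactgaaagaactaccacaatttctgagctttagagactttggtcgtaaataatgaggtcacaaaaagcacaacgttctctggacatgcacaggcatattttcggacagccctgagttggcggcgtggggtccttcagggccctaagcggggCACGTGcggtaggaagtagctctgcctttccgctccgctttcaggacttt
Tsr1: gtttactcggtgCACGTGggcagttagaat
Nop2: cttccccaagtgCACGTGgagcgg
Rrp12: gctgagaatacaCACGTGggttctgctgtg
Ebna1bp2: gcgtcttgctggCACGTGgagtggcagccg
Bysl: tagccggcttcaCACGTGtaaactttgtgg
Ddx18: ctcggaactgcgCACGTGcatctgtcgctc
Fbl: ggcgcttttttcCACGTGtgaaagcctgag

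Ltv1 carries its E-box before the start. Polr1b and Nhp2, with changes of -0.73 and -0.65 at 48 h beside its -0.78, have no CACGTG in their windows. Whether the motif bears on the size of a change was not tested.

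Other ribosome biogenesis factors came from a wider list of 91 genes, of which 80 were tested. Counting both directions together, they were called about as often as all genes or less. At 5000 µM 17 fell and 6 rose at 24 h (median -0.09), so 28.8% were called where 38.1% of all genes were. At 48 h 22 fell and 3 rose (median -0.14), so 31.2% were called where 32.6% of all genes were. The largest falls at 24 h were those of Ppan (-0.43 ± 0.07), Ftsj3, a methyltransferase (-0.40 ± 0.08), Riok1, a kinase of small subunit maturation (-0.40 ± 0.13) and Noc2l (-0.39 ± 0.09). At 48 h they were those of Sdad1 (-0.70 ± 0.09), Mybbp1a (-0.58 ± 0.11), Utp20 (-0.56 ± 0.17) and Wdr36 (-0.51 ± 0.09). Polr1d, a subunit shared by polymerases I and III, rose at both times (0.42 ± 0.05 and 0.25 ± 0.05), and Nol9, a kinase of precursor processing, rose at 48 h (0.40 ± 0.09). After 48 h at 500 µM 15 rose and 17 fell, so 40% were called where 42.6% of all genes were.

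Of the Myc network, 10 of 15 listed genes were tested. At 5000 µM 30% of them were called at 24 h and 20% at 48 h, below the 38.1% and 32.6% of all genes. Mnt, a repressor that competes with Myc for Max, fell at both times (-0.32 ± 0.07 and -0.27 ± 0.07). Mxi1, another such repressor, fell at 24 h (-0.36 ± 0.10), and Mycbp2 rose at both times (0.30 ± 0.09 and 0.31 ± 0.09). The groups overlapped for Mnt at 48 h and for Mycbp2 at 24 h. Of 27 tested Myc targets outside ribosome biogenesis, 8 fell and 3 rose at 24 h, and 6 fell and 2 rose at 48 h. The shares called, 40.7% and 29.6%, were near the 38.1% and 32.6% of all genes. Cad, which starts pyrimidine synthesis (-0.53 ± 0.14), Shmt2, a mitochondrial enzyme of one-carbon metabolism (-0.44 ± 0.08), and the transferrin receptor Tfrc (-0.38 ± 0.09) fell at 24 h. Eif4ebp1, an inhibitor of translation initiation (-0.69 ± 0.06), and Srm, spermidine synthase (-0.34 ± 0.11), fell at 48 h. Sord, sorbitol dehydrogenase, rose at both times (0.38 ± 0.06 and 0.68 ± 0.06). Of 19 proliferation genes 3 passed the brightness filter, and Pcna, the sliding clamp of DNA synthesis, rose at both times (0.68 ± 0.06 and 0.18 ± 0.06). Tyms (0.26 ± 0.14 and -0.32 ± 0.14) and Mcm7 (0.13 ± 0.13 and -0.06 ± 0.13) were not called at 24 or 48 h.

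Markers of other cells moved with the high dose in places. Of the 8 listed Kupffer cell and leukocyte markers 7 were on the array and 2 passed the brightness filter, and Cd14 fell at 24 h (-0.54 ± 0.07) and 48 h (-0.28 ± 0.07). Cd68, the other, was not called (0.18 ± 0.16, adjusted p = 0.395, and -0.10 ± 0.16, adjusted p = 0.674). The summed signal of the 7, most of it that of Cd14, was between 17149.9 and 22396.1 in vehicle and between 12488.8 and 16026.6 at 5000 µM at 24 h, and between 17296.4 and 20194.1 against 14094.8 and 16163.4 at 48 h. The defining markers Clec4f, Cd163, Ptprc, Csf1r and Cd5l were below the brightness of the tested genes. Acta2, a stellate cell and fibroblast marker, fell at 48 h (-0.47 ± 0.14), where the summed signal of 8 such markers was between 2564.65 and 3236.5 in vehicle and between 2312.69 and 2703.39 at 5000 µM. Of 5 cholangiocyte markers 4 were on the array and 1 passed the filter, Epcam, which was higher at 24 h (0.17 ± 0.05, adjusted p = 0.0120) and lower at 48 h (-0.14 ± 0.05, adjusted p = 0.0438). The summed signal of the 4, most of it that of Epcam, was between 9155.8 and 9563.25 in vehicle and between 9416.76 and 10852.3 at 5000 µM at 24 h, and between 13093.6 and 14443.2 against 11820.8 and 12918.5 at 48 h. The part of these markers in the members' falls was not tested. Of the hepatocyte markers, Cyp2e1, an enzyme that oxidises acetaminophen, rose at both times (0.79 ± 0.11 and 0.82 ± 0.11), and the other 8 were not called at 5000 µM.

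For 14 members the array held other probe sets, 20 in all. At 5000 µM their change had the sign of the chosen probe set for 12 of 20 at 24 h and 16 of 20 at 48 h. Rrn3 (-0.32 ± 0.08 and -0.38 ± 0.08), Wdr43 (-0.65 ± 0.09 and -0.46 ± 0.09) and Rrp12 had another probe set that was lower at both times. In a fit of all probe sets, no other probe set at 5000 µM against vehicle was called opposite to a chosen one that was itself called there. For 5000 against 500 µM at 48 h 1 was, that of Wdr75. At 500 µM and 48 h a dimmer Wdr75 probe set was lower (-1.15 ± 0.22) where the chosen one was higher (0.21 ± 0.08). In that comparison the sign was shared by 10 of 20.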

How the data were processed

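Expression was measured on 30 single-colour Affymetrix rat arrays, 1 per well, in 6 groups of 5 taken from the sample titles. The authors deposited linear signal intensity values made with MAS5, per the submitters' processing notes; the version and the target of its scaling are not stated there. Trimmed means (2%) of the 30 arrays were between 1500.55 and 1500.66 and the median signals between 314 and 401, so no further scaling was applied. Control probe sets (57 of 31099) and probe sets with several genes (436) or none listed (9780) were left out.

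The brightest probe set stood for each gene, by mean log2 signal over all arrays. One mean per group was fitted to log2 signals of the brightest 60% of genes with limma 3.58.1 in R 4.3.3, with eBayes and an intensity trend (24 residual and 7.58 prior degrees of freedom). Benjamini-Hochberg adjustment ran over all 8531 genes, and the script was tested on simulated data. The members and lists were chosen with earlier results of these data known. Values on every array are given for Myc and for the members with the largest change in each step at 5000 µM, and with the largest non-overlapping rise and fall per dose. Alternatives were median centring, quantile normalization, no brightness filter, the mean of all probe sets, only the groups compared, the actin ratio as a covariate, log2(signal + 100), no trend, leaving out each array and, added after the data were seen, a block by cycle of title serial numbers. Precision is limited by the 5 arrays per group.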

Additional observations from a re-analysis of the deposited data

Results flagged for a closer look

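Among the 11 genes given on every array, 4 of 66 groups of 5 arrays held 1 array far from the rest, and chance flags about 1 in 20 groups. They were Myc at 500 µM and 24 h (replicate 5, the highest at 7764), Nhp2 in vehicle at 24 h (replicate 1, the lowest at 5873), Nhp2 at 5000 µM and 48 h (replicate 5, the highest at 5809) and Imp3 in vehicle at 24 h (replicate 1, the lowest at 1617).

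The effect of 500 µM differed between 48 and 24 h for 25 of the 46 members in limma, 11 with a higher and 14 with a lower effect at 48 h, where 36.6% of all genes differed. The largest differences were 0.64 for Heatr1, 0.60 for Rrp1b, 0.57 for Rrp12, 0.48 for Bysl, 0.46 for Nolc1, 0.41 for Nop2, 0.36 for Tsr1 and 0.36 for Bop1. On the lower side they were -0.57 for Imp3, -0.47 for Nip7, -0.46 for Brix1, -0.40 for Ebna1bp2, -0.39 for Nop16, -0.37 for Nhp2, -0.36 for Nop10 and -0.35 for Imp4. With the actin ratio as a covariate none was called, and 3 of all 8531 genes were.

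The effect of 5000 µM differed between the times for 7 members, all lower at 48 h, where 16.4% of all genes differed. The differences were -0.42 for Nhp2, -0.40 for Fbl, -0.38 for Ebna1bp2, -0.37 for Imp4, -0.33 for Wdr12, -0.30 for Mrto4 and -0.29 for Nop16. With the covariate none of these 7 was called, where 9.62% of all genes were.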

How the results depend on the processing

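The counts of members called at 5000 µM against vehicle stayed within 1.5 times in the alternatives run, at 21 to 25 at 24 h and 24 to 30 at 48 h, and their medians stayed negative. At 500 µM and 24 h the count was 1 with median centring and 1 after quantile normalization, and 0 to 1 with an array left out. At 500 µM and 48 h it was 1 with the actin ratio as a covariate, and the median was 0.0457 with the covariate, -0.0929 centred and -0.0673 after quantile normalization. For 5000 against 500 µM at 48 h the median was -0.18 centred, -0.21 after quantile normalization and -0.32 to -0.23 with an array left out. In vehicle over time 2 were called with the covariate (5.16% of all genes) and 9 to 17 with an array left out. The median was 0.0136 centred and 0.00857 after quantile normalization. For the 500 µM effect between times the count was 0 with the covariate, where 3 of all 8531 genes were called. The median was -0.10 centred, -0.0821 after quantile normalization and -0.0284 with probe sets averaged. For the 5000 µM effect the count was 1 with the covariate (9.62% of all genes), 4 centred, 4 without the filter and 4 to 8 with an array left out. Among the 11 genes given on every array, reversed values were Nolc1 at 500 µM and 48 h (-0.0853) and in the 500 µM effect between times (-0.18) with probe sets averaged, and Rrp1b at 500 µM and 48 h (-0.0176) with the covariate. Of the other members, called changes that turned sign with probe sets averaged were those of Wdr75 at 500 µM and 48 h (-0.47), for 5000 against 500 µM at 48 h (0.30) and in the 500 µM effect between times (-0.63), Ubtf at 5000 µM and 48 h (0.06) and Imp4 at 5000 µM and 24 h (-0.08). With the covariate they were those of Nop16 in vehicle over time (-0.0183) and in the 500 µM effect (0.00395); the cause was not tested. The serial numbers in the titles run in 5 cycles that each hold 1 array of all 6 groups, and no label says what a cycle shares. Arrays of a cycle had correlations of -0.32 to 0.43 between their deviations from the group means, over 0.1 in 31 of 75 pairs, and 15 of 30 arrays correlated best with one of their own cycle. A replicate block by cycle, chosen after seeing the data, gave 24 members called at 5000 µM and 24 h, 29 at 5000 µM and 48 h, 23 at 500 µM and 48 h and 1 at 500 µM and 24 h, Imp3. The calls of Ddx18 at 5000 µM and 24 h and Rrp1 at 500 µM and 48 h were lost under it.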
